A study of Mus musculus with 10 samples.

Results

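The genes described here are 10 genes of the circadian clock, measured in differentiating C57BL/6 embryonic stem cells of the mouse. They are the activators Arntl (also called Bmal1) and Clock, the repressors Per1, Per2, Per3, Cry1 and Cry2, the nuclear receptors Nr1d1 and Nr1d2 (Rev-erb alpha and beta), and the output factor Dbp. The members were fixed by symbol: every probe set annotated to exactly 1 gene symbol, the symbol being that of a member, was taken. They were 10 of the 18193 genes and 23 of the 34945 probe sets with 1 symbol, and no member probe set was shared with another symbol. Each gene is represented by its brightest probe set, judged by the mean of the 10 arrays, and its other probe sets are given beside it.

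The study asked whether keratinocyte growth factor (KGF) and dexamethasone with raised cAMP help pluripotent cells become alveolar epithelial type II cells, the surfactant-making cells of the lung. Total RNA was hybridised to 10 Affymetrix arrays, 1 for each condition. Untreated control cells and cells with KGF alone were sampled at day 8, day 17 and day 24 of differentiation. Cells with DCI alone and cells with KGF and DCI together were sampled at day 17 and day 24, so that no day 8 array has DCI. DCI is not spelled out in the labels and is read here as the dexamethasone and cAMP treatment of the study's title. Dexamethasone is a synthetic glucocorticoid, and KGF is the growth factor FGF7, which signals to epithelial cells. The sources used here do not give doses, the start of each treatment, the hour of harvest or the time since the last change of medium. Clock genes cycle over the day, so a change in mean level and a change in phase at harvest cannot be told apart in these single samples.

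The clock is a feedback loop of transcription. ARNTL and CLOCK bind together to E-box sequences and switch on the Per and Cry genes, the Nr1d genes and Dbp. PER and CRY proteins return to the nucleus and block ARNTL and CLOCK, while the NR1D proteins repress Arntl through elements that they share with the activating ROR receptors. DBP and its relatives TEF and HLF bind D-box sequences, where NFIL3 acts as the repressor. The loop runs in most tissues, the lung included, and glucocorticoids and cAMP are both known to act on Per1 directly and to reset the clock in cultured cells.

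The start regions of 9 of the 10 genes were available from RefSeq (build GRCm38.p6), each covering 250 bases before and 50 after an annotated start, and Per2 was not matched. They are printed for the genes whose window holds a clock element other than the E-box variant alone, so that the elements of the loop can be seen in place. Capitals mark the motif matches. In Per1 and Cry1 these are the E-box CACGTG, in Cry1 also AACGTG, which is the E-box variant CACGTT read on the other strand, in Per3 the D-box TTATGTAA, and in Arntl the ROR element AAGTAGGTCA.
Per1 (chr11:69098699-69098998, plus strand, the first of 2 windows): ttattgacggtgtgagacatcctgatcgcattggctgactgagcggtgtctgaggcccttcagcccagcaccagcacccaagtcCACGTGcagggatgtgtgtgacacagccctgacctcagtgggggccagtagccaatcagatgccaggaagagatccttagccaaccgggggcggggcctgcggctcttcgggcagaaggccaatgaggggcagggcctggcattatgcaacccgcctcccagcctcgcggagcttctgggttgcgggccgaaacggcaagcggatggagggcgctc
Cry1 (chr10:85185005-85185304, minus strand): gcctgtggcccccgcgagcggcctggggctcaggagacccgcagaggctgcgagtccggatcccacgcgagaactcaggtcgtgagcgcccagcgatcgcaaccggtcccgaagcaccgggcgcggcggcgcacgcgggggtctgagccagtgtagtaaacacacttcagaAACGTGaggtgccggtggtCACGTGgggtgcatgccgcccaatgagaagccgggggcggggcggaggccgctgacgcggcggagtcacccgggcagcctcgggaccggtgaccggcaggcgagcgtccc
Per3 (chr4:151044616-151044915, minus strand): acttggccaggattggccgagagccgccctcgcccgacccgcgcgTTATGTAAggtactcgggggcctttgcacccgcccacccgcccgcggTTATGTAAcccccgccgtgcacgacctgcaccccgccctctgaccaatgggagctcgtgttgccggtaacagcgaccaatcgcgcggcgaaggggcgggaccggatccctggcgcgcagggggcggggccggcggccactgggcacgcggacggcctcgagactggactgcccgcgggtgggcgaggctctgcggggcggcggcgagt
Arntl (chr7:113207261-113207560, plus strand, the second of 2 windows): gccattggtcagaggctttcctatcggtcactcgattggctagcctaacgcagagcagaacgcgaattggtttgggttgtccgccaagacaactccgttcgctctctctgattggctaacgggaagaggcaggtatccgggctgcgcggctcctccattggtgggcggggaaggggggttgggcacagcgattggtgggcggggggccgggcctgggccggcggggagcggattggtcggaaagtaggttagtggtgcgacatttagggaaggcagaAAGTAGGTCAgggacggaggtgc

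Every window was searched on both strands for 6 motifs, and no 2 matches in the members' windows overlapped. CACGTG was in 2 of the 9 matched members, Per1 at position -166 from the start and Cry1 at -60, and in 7.15% of 32851 promoter windows of this length. CACGTT was in 3 members, Cry1 at -79, Cry2 at -166 and Nr1d1 at -28, and in 4.68% of all windows. The D-box, searched as TTATGTAA or TTACGTAA, was found in Per3 at -205 and at -158 and in no other member, against 1.06% of all windows. The ROR response element was found in Arntl alone, 28 bases past the start, against 0.219% of all windows. The cAMP response element TGACGTCA (1.79% of windows) and the glucocorticoid response element (0.475%) were in 0 of the 9 members within these windows. Members were counted by gene, with a match in any of their windows. Counted so over 27025 genes, the shares were 8.09% for CACGTG, 5.44% for CACGTT and 1.23% for the D-box. They were 0.259% for the ROR element, 2.03% for the cAMP element and 0.537% for the glucocorticoid element. These matches describe letters in a short window and do not show that a factor binds there.

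All values are log2 expression, on which a difference of 1 is a doubling. No arrays held identical values. With 1 array per condition there were no replicates. Differences were tested in limma with an additive model of day, KGF and DCI over the 10 arrays. Its only error is each gene's residual spread over 5 degrees of freedom, which limma shrinks towards a trend with level fitted over all genes. Standard errors, intervals and p-values use the shrunk spread. Where a standard error (SE) follows a difference, it comes from the same fit as the difference. The DCI difference at each day and the interactions come from separate fits on the 8 arrays of days 17 and 24. Benjamini-Hochberg adjustment covered all 18193 genes, with a threshold of 0.05. The untreated day 8 array stood apart in its control probe sets. The 3′ minus 5′ signal of Actb was 1.05 there against 0.46 to 0.62 on the other 9 arrays. That of the spiked dap control was 4.80 against 1.35 to 2.68. The DCI and combined arrays of day 17 came next, at 2.68 and 2.49 for dap and 0.62 and 0.61 for Actb. The part of this in the day 17 DCI differences was not tested. The stem cell markers Pou5f1 and Nanog reached at most 6.24 and 6.85, near or below the median gene level of 6.68. The type II cell marker Sftpc lay between 4.13 and 8.03, and the lung factor Nkx2-1 between 4.45 and 5.00 on all arrays. Of the 8 type II markers measured, 4 rose from day 8 to day 17 and 3 from day 17 to day 24. Of all genes, 21.4% and 14.8% were called higher in these steps. The log2 of the markers' summed signal ran from 8.80 on the KGF array of day 8 to 11.65 on the KGF array of day 24. The RNA is from whole cultures, so fewer cells of a type and less RNA per cell cannot be told apart.

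**Figure D1:**
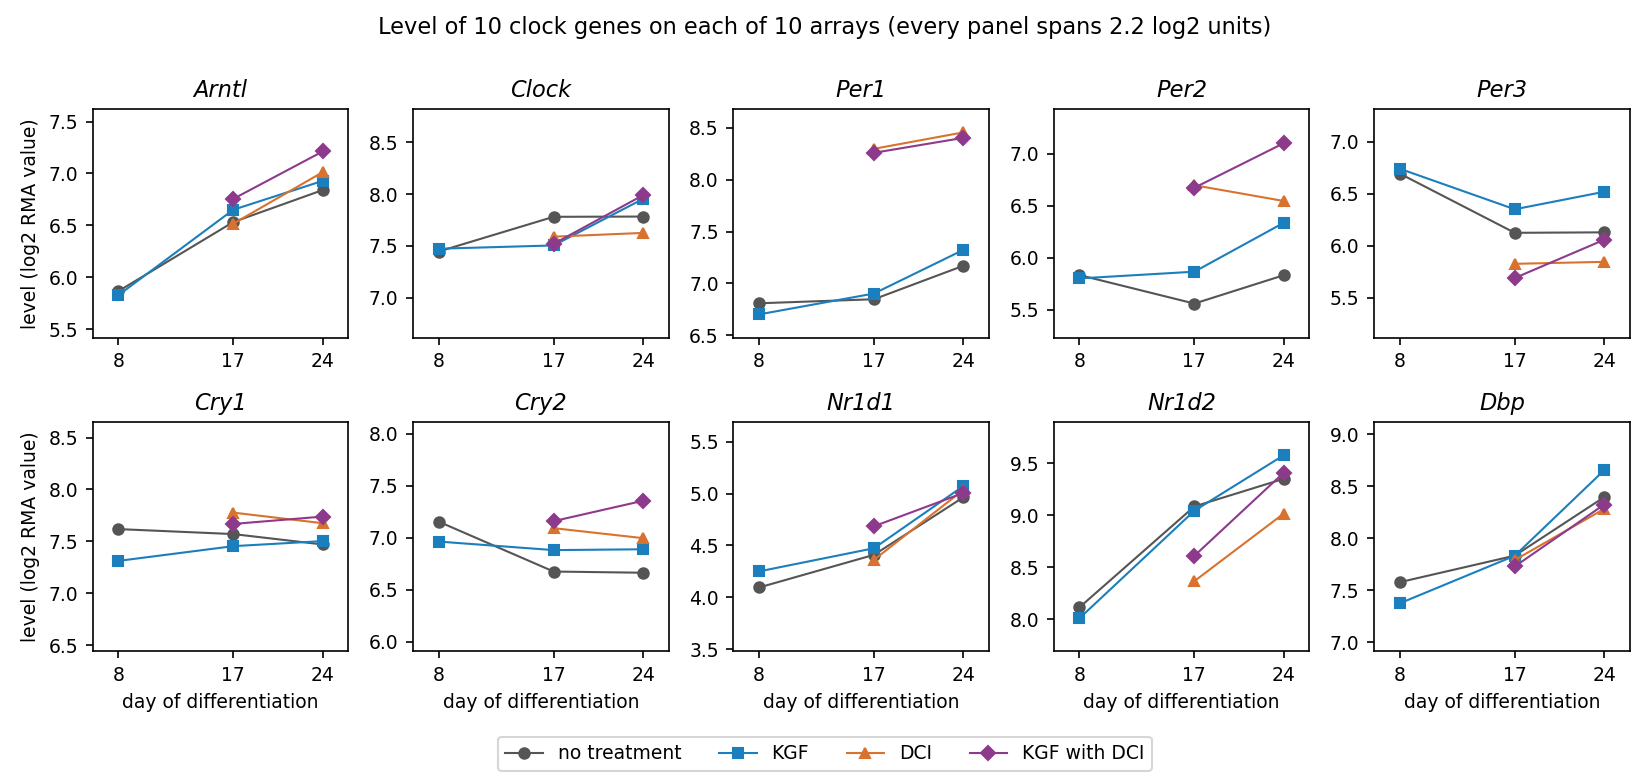
Level of each clock gene (log2 RMA value) against day of differentiation, 1 point per array; lines join arrays of the same treatment, and every panel spans the same number of log2 units. Per1 and Per2 with DCI lie above all arrays without it, and Arntl, Nr1d1, Nr1d2 and Dbp climb from day 8 to day 24.

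The clock genes other than Nr1d1 gave a moderate signal. By mean level over the arrays, Nr1d2 stood at the 82.1 percentile of all genes, Dbp at 69.7, Clock at 64.6, Cry1 at 63.3, Per1 at 62.3, Cry2 at 54.2, Arntl at 49.1, Per2 at 44.2 and Per3 at 43.9. Nr1d1 was the dimmest at the 25.3 percentile, where array values are compressed. Brightness of different probe sets does not rank the genes by transcript number. Neighbouring single arrays in a gene's order of levels cannot be shown to differ, and only the terms of the model were tested.

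The clearest feature of the data was a higher level of Per1 and Per2 in every culture given DCI. Per1 is an immediate target of hormone and cAMP signals within the loop. Its level was 6.81 on the untreated array and 6.70 on the KGF array at day 8. At day 17 the untreated array read 6.85, the KGF array 6.90, the DCI array 8.30 and the combined array 8.26, and at day 24 they read 7.17, 7.32, 8.46 and 8.40 in the same order. The 4 DCI arrays lay within 8.26 to 8.46 and did not overlap the 4 arrays of the same days without DCI, the highest of which was 7.32. Per1 rose with DCI by 1.29 ± 0.08 (SE; 95% confidence interval 1.11 to 1.47), a 2.45-fold difference with an adjusted p of 4.70e-06 in limma. It ranked 128 from the top of the 18193 genes by size of increase.

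Per2, the second main PER repressor, was 5.83 untreated and 5.80 with KGF at day 8. It was 5.56, 5.87, 6.70 and 6.67 at day 17 and 5.83, 6.34, 6.55 and 7.10 at day 24 in the order untreated, KGF, DCI and both. All 4 DCI arrays were again above the 4 without, with a narrower gap between 6.34 and 6.55. Per2 rose with DCI by 0.86 ± 0.13 (confidence interval 0.58 to 1.13), a 1.81-fold difference with an adjusted p of 0.00108 in limma. Both remaining Per2 probe sets were higher too, by 0.55 and 0.39, with adjusted p over all probe sets of 0.0105 and 0.0321, and on each the DCI arrays were all above. For Per1 and Per2 the limma call held in 10 of 10 fits that left out 1 array, with differences of 1.25 to 1.35 and 0.76 to 0.95.

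Per3, the PER protein that the loop can run without, went the other way on its main probe set. Its level was 6.69 and 6.74 at day 8, then 6.12, 6.35, 5.83 and 5.69 at day 17, followed by 6.13, 6.52, 5.84 and 6.06 at day 24, in the same order as for Per2. All 4 DCI arrays were below the 4 without, with 6.06 against 6.12 at the edge. Per3 fell with DCI by 0.43 ± 0.10, a 1.34-fold difference with an adjusted p of 0.0196 in limma. The other 5 Per3 probe sets, all dimmer with means of 3.91 to 4.63, differed by -0.10 to 0.05 and none passed. The call held in 6 of 10 fits with an array left out and was lost without the day 17 KGF, day 17 KGF with DCI, day 24 KGF or day 24 DCI array, with adjusted p up to 0.0729.

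The cryptochromes are the partners that carry most of the repression. Cry2 was 7.15 and 6.96 at day 8, then 6.67, 6.88, 7.09 and 7.16 at day 17, followed by 6.66, 6.89, 6.996 and 7.36 at day 24, in that order again. At days 17 and 24 the DCI arrays were all above the others, while the untreated day 8 array lay within their range. Cry2 rose with DCI by 0.37 ± 0.10, or 1.30-fold, with an adjusted p of 0.0262 in limma. That call held in 4 of 10 fits with an array left out: it was lost without the untreated, DCI or combined array of day 17 and without the untreated, KGF or combined array of day 24, with adjusted p up to 0.103.

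Cry1 had the narrowest range of the 10 genes. It was 7.62 and 7.31 at day 8, 7.57, 7.45, 7.78 and 7.67 at day 17 and 7.47, 7.50, 7.68 and 7.74 at day 24, in the order untreated, KGF, DCI and both where all 4 exist. The DCI minus no DCI difference lay between 0.20 and 0.24 in all 4 pairs of arrays matched for day and KGF. At 0.22 ± 0.08 (confidence interval 0.04 to 0.39) its adjusted p of 0.0994 in limma missed the threshold.

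Among the E-box driven nuclear receptors, Nr1d2 was 8.11 and 8.01 at day 8. Its untreated and KGF arrays read 9.08 and 9.04 at day 17 and 9.35 and 9.58 at day 24, and its DCI and combined arrays 8.37 and 8.61 and then 9.02 and 9.41. Within each day every DCI array was below its partner with the same KGF status, yet the ranges over the 2 days overlapped. Nr1d2 fell with DCI by 0.41 ± 0.10, or 1.33-fold, with an adjusted p of 0.0165 in limma. The call was lost without the untreated or DCI array of day 17 or the DCI array of day 24, with adjusted p up to 0.0633. The other Nr1d2 probe set, with a mean of 3.16, differed by -0.05 and did not pass.

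The activators, Nr1d1 and Dbp had no DCI difference past the threshold. Arntl differed by 0.14 (confidence interval -0.06 to 0.33), Clock by -0.07 (-0.29 to 0.14), Nr1d1 by 0.04 (-0.18 to 0.26) and Dbp by -0.15 (-0.33 to 0.04). Dbp was lower with DCI in all 4 matched pairs, by 0.04 to 0.33. The intervals leave room for differences of the size seen in Cry1. In all, 3 members were higher with DCI, 2 lower and 5 did not pass, where 15.4% of all genes were called in limma, 7.27% higher and 8.09% lower. The median difference of the members was 0.09 against -0.01 for all genes. DCI arrays did not overlap the others for 4 members that were above and 1 below, where 5.05% and 5.65% of all genes were so placed.

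**Figure D2:**
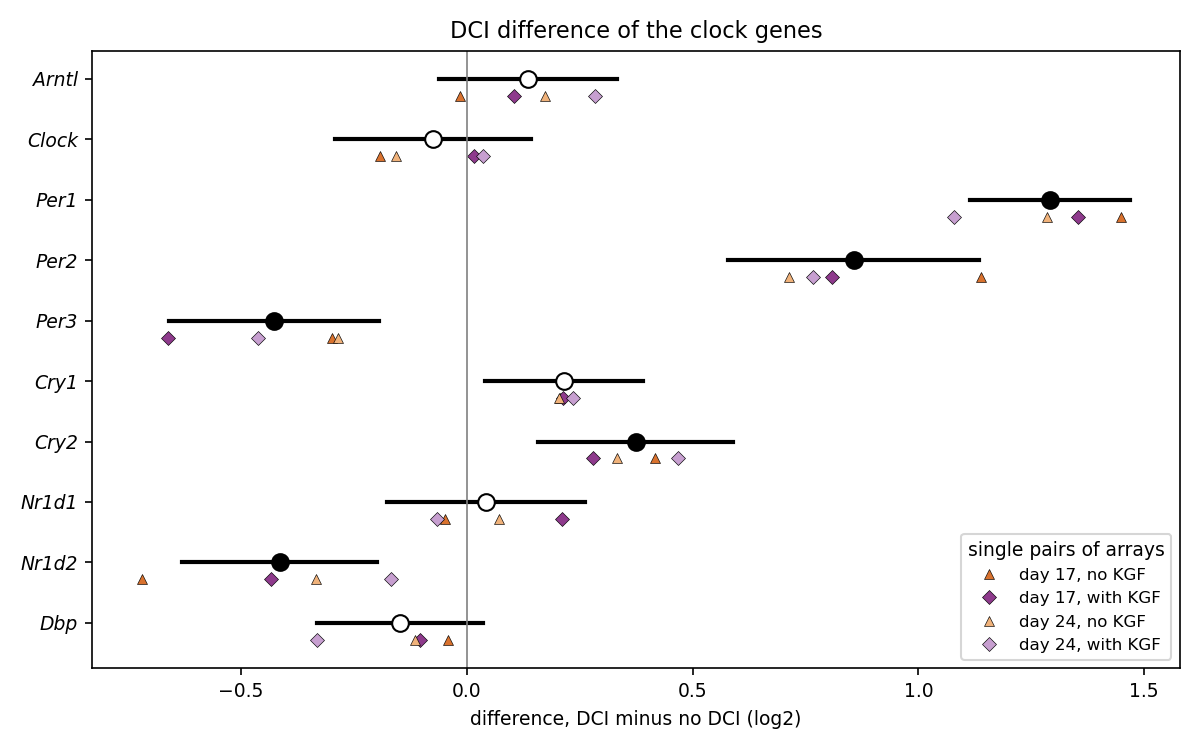
Difference with DCI minus without DCI (log2) for each clock gene: the large point is the limma estimate, filled where the adjusted p is under 0.05, with its 95% confidence interval, and the small points are the 4 pairs of arrays matched for day and KGF. Per1 and Per2 stand clear of 0 in all pairs, Cry1 and Cry2 lie to the right and Per3 and Nr1d2 to the left of it.

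The DCI difference was also estimated at each day. At day 17, where 9.64% of genes were called (5.63% higher, 4.01% lower), Per1 was higher by 1.40 ± 0.09 and Per2 by 0.97 ± 0.16, and Nr1d2 was lower, at -0.58 ± 0.10 with an adjusted p of 0.00442 in limma. At day 24, where 19.4% of genes were called (7.99% higher, 11.4% lower), Per1 was higher by 1.18 ± 0.09, Per2 by 0.74 ± 0.16 and Cry2 by 0.40 ± 0.11 (adjusted p 0.0331 in limma), while Nr1d2 at -0.25 ± 0.10 had an adjusted p of 0.109. The change between the days was tested itself as an interaction. It passed for 0 of the 10 members in limma, where 2.51% of genes were called (0.533% higher, 1.97% lower), and 1 member, Nr1d2 at 0.33 ± 0.14, had an unadjusted p under 0.05 with an adjusted p of 0.286.

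Markers of the treatment and of other cell types moved with DCI as well. Fkbp5, a chaperone gene strongly induced by glucocorticoids, rose by 1.75, and 9 of 12 glucocorticoid response genes and 6 of 12 cAMP response genes were higher, with medians of 0.80 and 0.49. Nr3c1, the glucocorticoid receptor, differed by -0.28 over both days and did not pass. At day 17 it read 8.78 and 8.75 with DCI against 8.98 and 8.82 without. At day 24 it read 8.61 and 8.67 against 8.98 and 9.16. Of the 4 listed glucocorticoid and cAMP signal carriers, Nr3c1 among them, 1 was called lower at day 24. The lowest difference in that list was then -0.43, that of Nr3c1. Of 20 macrophage markers, 18 were lower and 1 higher with DCI, with a median of -2.14. The log2 of their summed signal was 14.71 to 15.05 on the arrays of days 17 and 24 without DCI, 12.36 to 13.40 with DCI and 9.51 to 9.55 at day 8. The defining macrophage gene Csf1r was at 8.80 to 10.05 with DCI and 11.12 to 11.81 without. Of 15 epithelial markers, 8 were higher with DCI and 0 lower, with summed levels of 14.12 to 14.91 against 13.85 to 14.51. Summed neuron markers were at 11.03 to 11.61 against 9.64 to 10.23, with 1 of 8 called. Their median difference was -0.01, with a lowest of -0.29 and a highest of 2.22, so the sum does not describe the typical neuron marker. Of 8 smooth muscle markers 3 were lower, and their summed levels of 12.74 to 12.99 did not overlap the 13.11 to 13.38 without DCI. Of 9 visceral endoderm and liver markers 7 were higher with DCI at day 17, and at day 24 6 were lower and 1 higher, with summed levels of 14.60 to 14.61 against 13.66 to 13.91 and then 13.24 to 13.61 against 13.75 to 13.87. The part of these cell types in the clock gene differences was not tested.

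**Figure D3:**
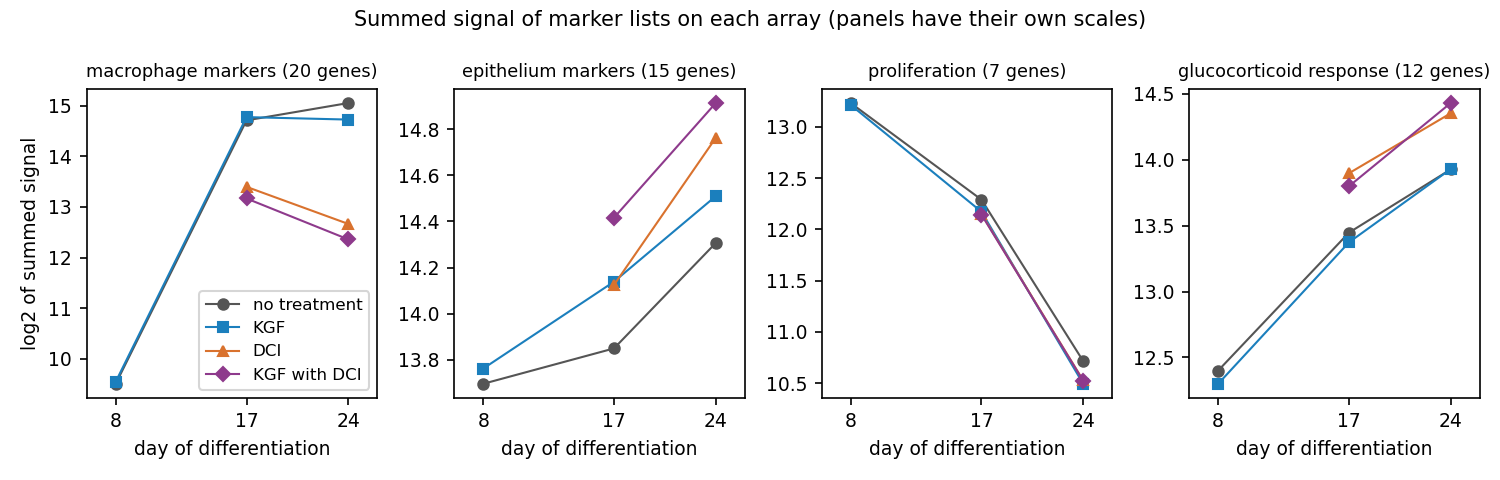
Log2 of the summed signal of 4 gene lists on each array against day, 1 point per array, each panel with its own scale. The macrophage list climbs after day 8 and is lower with DCI, the proliferation list drops at each step, and the glucocorticoid response list is higher with DCI.

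The clock genes were also compared between days of culture. From day 8 to day 17, 3 members rose, 1 fell and 6 did not pass, where 42.4% of all genes were called in limma, 21.4% higher and 21% lower. From day 17 to day 24, 5 members rose, 0 fell and 5 did not pass, where 37.3% were called, 14.8% higher and 22.5% lower. The member shares in the first step are thus near those of all genes. In the second step the count of members that rose was 5 of 10 against 14.8%.

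The REV-ERB genes rose with time. Nr1d2, whose values are given above, rose by 0.92 ± 0.13 to day 17 (1.90-fold, adjusted p 0.000184 in limma) and by 0.56 ± 0.10 to day 24 (1.48-fold, adjusted p 0.00125). Its dim second probe set was at 0.03 and 0.19 and passed in neither step. Nr1d1 was 4.10 and 4.25 at day 8, then 4.41, 4.47, 4.36 and 4.69 at day 17, followed by 4.96, 5.07, 5.04 and 5.01 at day 24, in the order untreated, KGF, DCI and both. All 4 day 24 arrays were above all 4 of day 17, and those were above both of day 8. Nr1d1 rose in the second step by 0.54 ± 0.10 (adjusted p 0.00182), and its first step of 0.29 ± 0.13 had an adjusted p of 0.104 in limma. That step passed in limma without a mean trend in the variances (adjusted p 0.0445) and in the fit with averaged probe sets (adjusted p 0.0490). Nr1d1 has 1 probe set, so averaging left its difference at 0.29 and changed only its error and the adjustment.

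Arntl, the obligate activator that the REV-ERB proteins repress, followed the same order of days. It was 5.87 and 5.83 at day 8, 6.53, 6.65, 6.52 and 6.76 at day 17 and 6.84, 6.93, 7.01 and 7.21 at day 24, in the order untreated, KGF, DCI and both. No day overlapped another. Arntl rose by 0.70 ± 0.12 (1.62-fold, adjusted p 0.000661) and then by 0.38 ± 0.09 (1.31-fold, adjusted p 0.00652) in limma. A dimmer Arntl probe set with a mean of 4.43 differed by 0.03 and 0.04.

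Clock, its partner, was 7.45 and 7.47 at day 8, 7.78, 7.50, 7.59 and 7.52 at day 17 and 7.78, 7.95, 7.63 and 7.99 at day 24, and the days overlapped. Neither step passed in limma, at 0.18 ± 0.13 and 0.24 ± 0.10 with adjusted p of 0.323 and 0.0808. The second step did pass without the untreated array of day 17 (adjusted p 0.0353) or the DCI array of day 24 (adjusted p 0.0457), and after a second quantile normalization at 0.32 (adjusted p 0.0192). The other Clock probe sets differ among themselves. The nearly equally bright one, with a mean of 7.58 against 7.67, was at 0.09 and -0.04 in the 2 steps, and another at 0.20 and 0.08, and none of these passed. A dimmer Clock probe set with a mean of 4.66 went the opposite way, at -0.51 and -0.36 with adjusted p over all probe sets of 0.0222 and 0.0367.

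Dbp, an output gene that follows E-box activity closely, was 7.58 and 7.37 at day 8, 7.83, 7.83, 7.79 and 7.73 at day 17 and 8.40, 8.65, 8.28 and 8.32 at day 24. The 3 days did not overlap, and the day 24 arrays ranged from 8.28 to 8.65. How many of all genes separate by day, as Nr1d1, Arntl and Dbp do, was not counted. Dbp rose by 0.39 ± 0.11 (1.31-fold, adjusted p 0.0139) and then by 0.62 ± 0.08 (1.54-fold, adjusted p 0.000263) in limma. Its other probe set rose alike, by 0.67 and 0.53.

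Among the repressors, Per1 rose in the second step by 0.26 ± 0.08 (1.20-fold, adjusted p 0.0265 in limma), smaller than its DCI difference. Per3 fell in the first step by 0.51 ± 0.14 (1.42-fold, adjusted p 0.0124), while its other 5 probe sets were at -0.44 to -0.02 and none passed. Both steps of Per2, Cry1 and Cry2 missed the threshold, with Per2 at -0.05 and 0.26, Cry1 at 0.04 and -0.02 and Cry2 at -0.29 and 0.02. The second-step call of Per1 held in 4 of 10 fits with an array left out. It was lost without the untreated, KGF or combined array of day 17 or without the untreated, KGF or DCI array of day 24, with adjusted p up to 0.0856.

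The calls of Nr1d2 and Arntl in both steps, and of Dbp and Nr1d1 in the second, held in all 10 fits with an array left out. In the first step Per3 was lost without the untreated day 8 array, which stood apart in its controls, at -0.44 with an adjusted p of 0.102. Dbp was lost without the KGF array of day 8, at 0.26 with an adjusted p of 0.155. Without that array Cry2 passed, at -0.50 with an adjusted p of 0.0200.

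**Figure D4:**
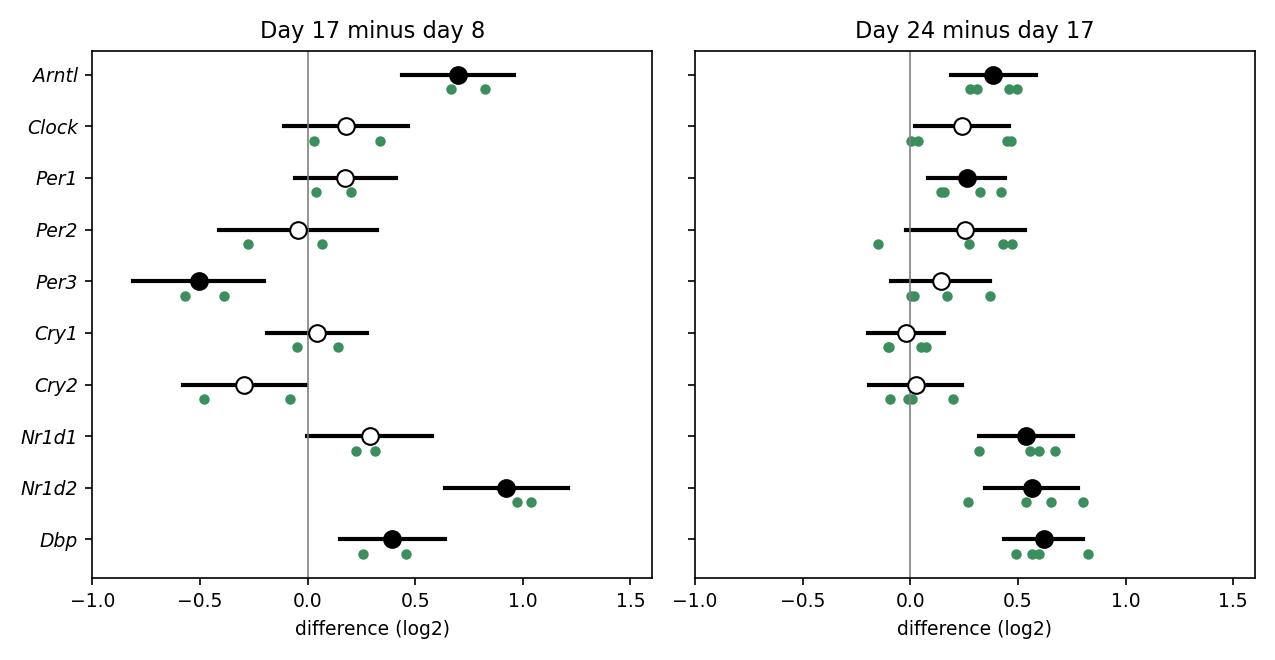
Difference between days (log2) for each clock gene, day 17 minus day 8 at left and day 24 minus day 17 at right: large points are limma estimates, filled where the adjusted p is under 0.05, with 95% confidence intervals, and small points are pairs of arrays of the same treatment (2 at left, 4 at right). Arntl, Nr1d2 and Dbp lie right of 0 in both panels.

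Cell composition changed with time too. In the first step 19 of 20 macrophage markers and 13 of 15 epithelial markers rose, with medians of 5.12 and 1.05. All 7 proliferation genes fell in both steps, with medians of -0.96 and -1.64. Nr3c1 rose by 1.81 in the first step. The part of these shifts in the day differences of the clock genes was not tested.

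KGF left the clock genes without a call. Of all genes, 0.0055% (1 gene) passed for KGF in limma, and 0 of the 10 members did. At an unadjusted p under 0.05 there was 1 member, Per2 at 0.26 ± 0.11 with an adjusted p of 0.585, and 1466 genes in all. Per2 was higher with KGF in 3 of 5 matched pairs, which ranged from -0.03 to 0.56. The KGF difference of the other 9 members ran from -0.09 for Cry1 to 0.15 for Per3, and every 95% confidence interval of those 9 held 0. The intervals reach at most 0.36, for Per3, and at least -0.24, for Cry1.

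The design crossed KGF with DCI at days 17 and 24. The KGF by DCI interaction passed for 0 members and 0 genes in limma, with 0 members and 267 genes at an unadjusted p under 0.05. The KGF by day interaction also passed for 0 members and 0 genes, with 932 genes and 1 member at an unadjusted p under 0.05. That member was Clock, at 0.44 ± 0.15 with an adjusted p of 0.944. With both treatments against the untreated array of the same day, Per1 was 1.41 higher at day 17 and 1.23 at day 24. Per2 was 1.11 and 1.27 higher and Cry2 0.485 and 0.69 higher on these days. Nr1d2 differed by -0.48 at day 17 and 0.06 at day 24, and Per3 by -0.435 and -0.07. These are differences between single arrays and have no test. Of the 10 arrays, the day 24 array with both treatments had the highest Per2 level, 7.10.

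The loop is surrounded by partner factors, kinases and outputs, of which 29 were listed and 25 measured. For DCI 4 of these 25 rose, 1 fell and 20 did not pass, so that 5 of 25 passed where 15.4% of all genes did. Their median difference was 0.04 against -0.01 for all genes. Among the D-box factors, Nfil3, the repressor, rose by 0.70 ± 0.10 (1.62-fold, adjusted p 0.000774 in limma). Its level was 7.16 and 7.15 at day 8, 7.82, 7.75, 8.52 and 8.32 at day 17 and 8.16, 8.58, 9.05 and 9.23 at day 24, in the order untreated, KGF, DCI and both. Within each day the DCI arrays were the higher ones. Hlf, an activator at the same element, rose by 0.55 ± 0.14 (adjusted p 0.0227), and Tef, its relative, fell by 0.28 ± 0.07 (adjusted p 0.0169).

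Bhlhe40, a repressor that competes for E-boxes, rose with DCI by 0.54 ± 0.06 (1.46-fold, adjusted p 0.000248 in limma). It was 7.78 and 8.16 at day 8, 9.21, 9.32, 9.82 and 9.92 at day 17 and 10.12, 10.24, 10.57 and 10.75 at day 24. Within each day both DCI arrays were above both others. Its relative Bhlhe41 differed by -0.11 and the E-box repressor Ciart by 0.04, and neither passed. Npas2, which can stand in for CLOCK, rose by 0.60 ± 0.16 (adjusted p 0.0288). The ROR activators Rora and Rorb both differed by 0.03. Rorb, Bhlhe41, Npas2 and Ciart were dim, at the 20.94, 23.85, 33.09 and 37.26 percentile of all genes by mean level. For KGF and for DCI by day 0 of the 25 passed in limma.

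With an array left out, Nfil3 and Bhlhe40 kept their DCI call in 10 of 10 fits. Npas2 kept it in 5, Hlf in 6 and Tef in 6. Npas2 was lost without the KGF, DCI or combined array of day 17 or the untreated or combined array of day 24, and Hlf without the KGF or DCI array of day 17 or the untreated or combined array of day 24. Tef was lost without the KGF or DCI array of day 17 or the untreated or DCI array of day 24. The second probe sets of Npas2 and Hlf differed by 0.04 and 0.19, and those of Tef by -0.21 and -0.12. In the RefSeq windows Tef held CACGTG in both of its start regions and Hlf held the cAMP response element 9 bases before its start.

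**Figure D5:**
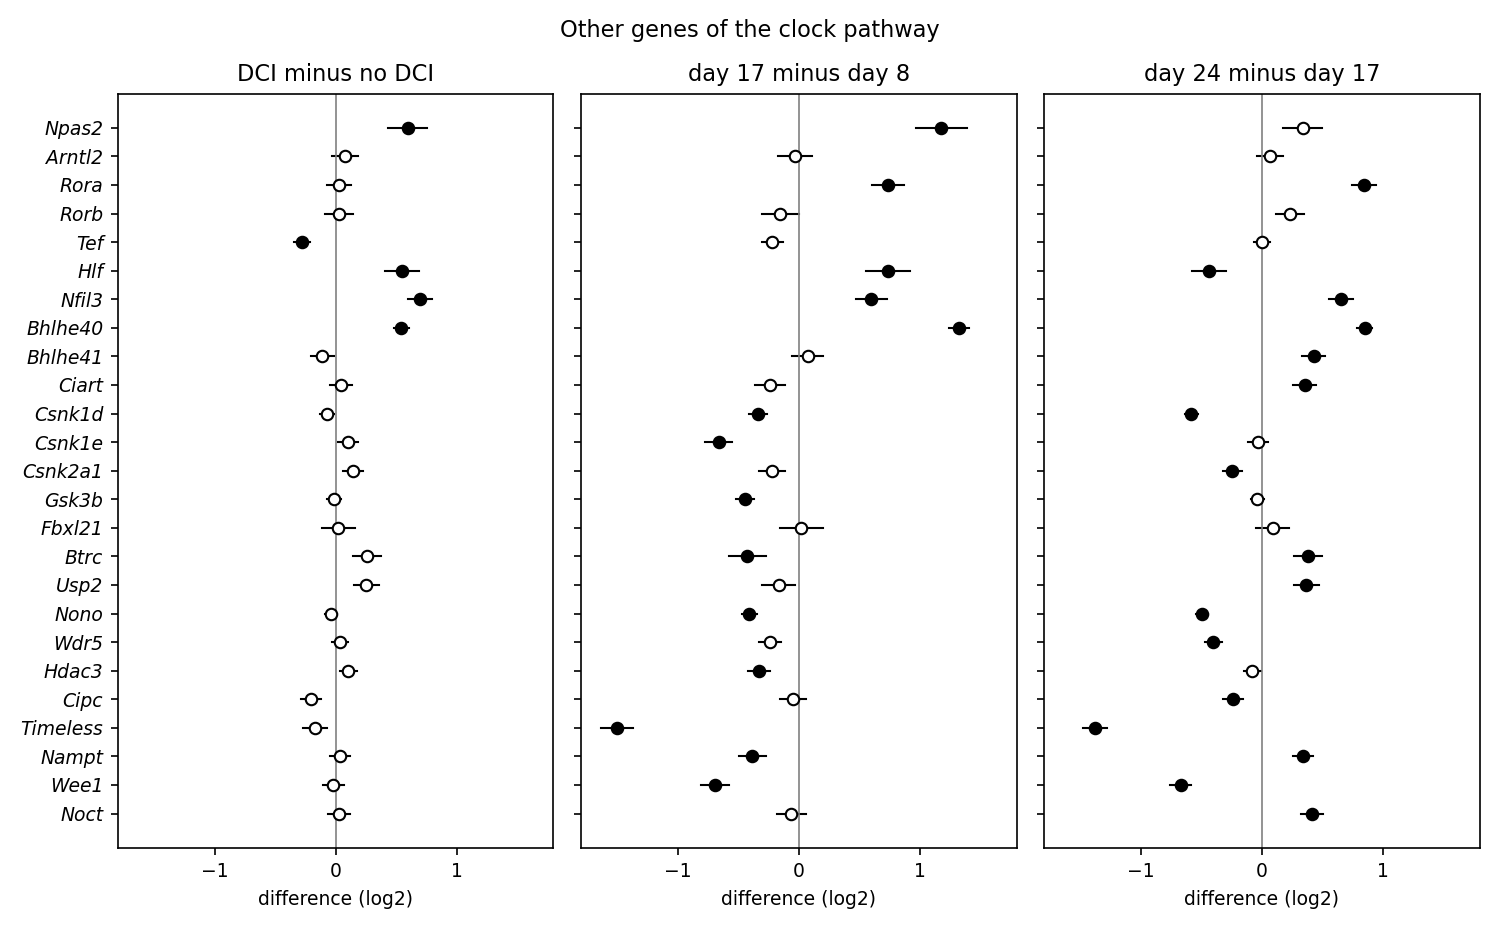
Limma difference (log2) with its standard error for the 25 other clock pathway genes, for DCI and for the 2 day steps; filled points have an adjusted p under 0.05. For DCI 5 points are filled, led by Nfil3 and Npas2, and Timeless lies farthest left in both day steps.

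In the first day step 14 of the 25 passed, 5 higher and 9 lower, where 42.4% of all genes passed, and in the second 17, 9 higher and 8 lower, where 37.3% did. Bhlhe40, Rora and Nfil3 rose in both steps: Bhlhe40 by 1.33 and 0.85, Rora by 0.74 and 0.84, and Nfil3 by 0.60 and 0.65. Npas2 rose by 1.18 in the first step, and its second step of 0.34 had an adjusted p of 0.121 in limma. Hlf rose by 0.74 and then fell by 0.44. The 3 E-box repressors all rose in the second step, Bhlhe41 by 0.43 and Ciart by 0.35.

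Timeless, which in mammals serves mainly the replication fork, fell most, 2.83-fold and then 2.60-fold. It went from 9.33 and 9.11 at day 8 to 7.58 to 7.73 at day 17 and 6.01 to 6.52 at day 24. Wee1, a clock-controlled kinase that holds back mitosis, fell by 0.69 and 0.67. All 7 proliferation genes fell in the same steps, and their part in these changes was not tested.

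The enzymes that set the pace of PER and CRY decay moved in both directions. The casein kinase gene Csnk1e fell by 0.66 in the first step and Csnk1d by 0.34 and 0.58, and the kinase Gsk3b fell by 0.44 in the first. Csnk2a1 fell by 0.24 in the second. Btrc, a ubiquitin ligase subunit for PER, fell by 0.42 and then rose by 0.38, and the deubiquitinase Usp2 rose by 0.37 in the second. Of the complex partners, Nono fell by 0.41 and 0.50, Hdac3 by 0.33 in the first step, and Wdr5 by 0.40 and Cipc by 0.24 in the second.

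The output genes Nampt, of NAD synthesis, and Noct, of RNA and lipid metabolism, rose in the second step by 0.34 and 0.42, and Nampt fell in the first by 0.38. In the first step 9 of the 14 calls held without the untreated day 8 array, and those lost were Hlf, Csnk1d, Btrc, Hdac3 and Nampt. Btrc held in 2 of 10 fits with an array left out, losing its call also without every other array but the untreated array of day 17 and the KGF array of day 24. Hdac3 was lost also without the KGF array of day 8 or the untreated array of day 17, and Nampt without the latter. In the second step Ciart was lost without the DCI array of day 17 and Usp2 without the untreated array of day 17 or the KGF array of day 24. Hlf held in 5 fits, being lost without the untreated or DCI array of day 17 or the untreated, DCI or combined array of day 24. Btrc held in 5, being lost without the KGF or DCI array of day 17 or the KGF, DCI or combined array of day 24. Csnk2a1 held in 4, where both day 8 arrays, the DCI array of day 17 and the combined array of day 24 could be left out. Cipc held in 3, those without a day 8 array or without the untreated array of day 17. For some of these genes another probe set had the opposite sign. In the first step this reached -0.61 for Rora, -0.16 for Npas2, 0.33 for Wee1, 0.17 for Nampt and 0.03 for Btrc, and in the second -0.37 for Btrc, 0.33 for Csnk1d, 0.12 for Cipc and 0.06 for Csnk2a1. Averaging a gene's probe sets ended the calls of Tef for DCI, of Rora, Nampt and Wee1 in the first step and of Bhlhe41, Csnk1d, Csnk2a1, Btrc, Usp2 and Cipc in the second.

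The genes whose course over the 10 arrays was most like that of 4 clock genes were found by the root mean square difference of log2 values after each gene was centred on its mean. Genes with a clone, accession or similar provisional name were left out of the search and of the medians. For Per1 the closest were Gfpt2 at 0.146, Klf15 at 0.170 and Gstk1 at 0.175, where the median over the genes searched was 0.753. Klf15 is also on the glucocorticoid response list. For Dbp they were Cpeb4 at 0.0864, Zbtb4 at 0.0962 and Ubxn2a at 0.0991 (median 0.467). For Nr1d1 they were Rarg at 0.0791, Noxo1 at 0.0935 and Plcd3 at 0.102 (median 0.432), and for Arntl Tmem50b at 0.0800, Susd6 at 0.0829 and Gpr108 at 0.0888 (median 0.497). A small value says that the profiles lay close together on these arrays, and nothing more.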

How the data were processed

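Biotin-labelled RNA from 10 samples was hybridised to Affymetrix arrays. The authors deposited log2 values of 45101 probe sets. Per the submitters' processing notes these came from RMA. RMA gives all arrays nearly the same distribution, so differences are relative to the other genes, and it compresses dim values. The sources used here give neither the RMA version nor a genome build. Gene symbols came from the platform annotation: 34945 had 1 symbol, 932 several, 9160 none, and 64 were controls.

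All 18193 genes were fitted with limma 3.58.1 in R 4.3.3 (lmFit, eBayes with a mean trend), with day, KGF and DCI as additive terms on the 10 arrays. Interactions and the DCI difference at each day were fitted on the 8 arrays of days 17 and 24, with 3 residual degrees of freedom. Adjustment was by Benjamini-Hochberg across the whole table. With 1 array per condition, the error behind the p-values holds departure from additivity together with array noise, and nothing says that cultures were independent. Precision is limited by the number of arrays. The fit was also run on data simulated from the additive model with independent noise. Such data hold no departure from additivity and no dependence between cultures, so that run cannot test for either.

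All 10 clock genes were named, and of the other clock pathway genes those past the threshold for DCI, a day step or DCI by day, plus 9 measured partner factors whatever their values. Members and lists were chosen with earlier results of these data known. The 4 genes with a list of like genes stand for the limbs of the clock. Promoter windows are RefSeq's. Alternatives are in the closing section. Figures were drawn with matplotlib 3.10.9.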

Additional observations from a re-analysis of the deposited data

How the results depend on the processing

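The count of clock genes past the threshold for DCI, 5, became 3 when the probe sets of a gene were averaged, where Per3 was at -0.08 (adjusted p 0.591) and Nr1d2 at -0.23 (adjusted p 0.173). Requiring at least 1.5-fold in addition left 2 for DCI, 2 of 4 for day 17 minus day 8 and 1 of 5 for day 24 minus day 17. With each array left out in turn the limma counts were 3 to 5, 3 to 4 and 4 to 5 for these comparisons, and 0 for KGF and each interaction. Of the other clock pathway genes, for which all settings were added after seeing the data, at least 1.5-fold left 2 of 5 for DCI, 8 of 14 for day 17 minus day 8 and 5 of 17 for day 24 minus day 17. Leaving out each array gave 2 to 5, 9 to 14 and 13 to 17 of them. Single probe sets went against a called direction, or passed against an uncalled one, for Per3 with DCI at 0.0306 and 0.0504 and for Clock at -0.51 and -0.36 in the day steps; opposite signs among uncalled values are not listed. Averaged probe sets also ended the calls of Per3 in the first step (adjusted p 0.0737) and Arntl in the second (adjusted p 0.0678), and using only arrays without DCI ended that of Dbp in the first (adjusted p 0.0626). Averaged probe sets and a variance prior without a trend each brought Nr1d1 past the threshold in the first step. As Nr1d1 has 1 probe set, neither setting changed its difference. Of the other clock pathway genes, averaged probe sets ended the calls of Tef for DCI (-0.20), of Rora (0.23), Nampt (-0.23) and Wee1 (-0.18) in the first step, and of Bhlhe41 (0.22), Csnk1d (-0.14), Csnk2a1 (-0.12), Btrc (0.01), Usp2 (0.27) and Cipc (-0.14) in the second. A second quantile normalization ended those of Hlf (-0.37), Csnk2a1 (-0.21) and Cipc (-0.17) in the second step and brought Clock past the threshold. The cause was not tested beyond the probe sets shown.

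Over all genes, the 2793 called for DCI became 1085 with at least 1.5-fold, 1638 without the untreated day 24 array and 1821 without the DCI array of that day. The 7713 and 6778 of the day steps became 4466 and 2081 with at least 1.5-fold. The 456 for DCI by day became 138 without a mean trend, 223 with averaged probe sets, 814 at an adjusted p under 0.1, and 143 to 181 without the DCI or combined array of day 17 or the KGF or combined array of day 24. The 1 gene for KGF became 65 on the 8 arrays of days 17 and 24 or without either day 8 array, 13 at an adjusted p under 0.1, and 0 to 2 in the other settings where it differed. Leaving out the lowest 40% of genes removed Nr1d1 and, of the other pathway genes named, Rorb, Bhlhe41, Npas2 and Ciart. A block for each matched pair of arrays gave 5 clock genes for DCI and 5 for day 24 minus day 17, as without it. Dim signal limits what can be read for Nr1d1, for Rorb, Bhlhe41, Npas2 and Ciart, and for the second probe sets.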
